A study of Mus musculus with 14 samples.

Results

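The postsynaptic density is the protein-rich plate under the membrane of excitatory synapses, where stacked scaffold proteins hold glutamate receptors beside their signalling enzymes. Dlg4 (PSD-95) binds receptors at the membrane, Dlgap1 (GKAP) links Dlg4 to the Shank proteins, and Homer proteins link Shank to metabotropic glutamate receptors and to calcium stores. Calcium entering through NMDA receptors activates CaMKII, a holoenzyme built mainly from the alpha (Camk2a) and beta (Camk2b) subunits in forebrain neurons, and this kinase is known for its part in synaptic potentiation. The 9 genes of this plate followed here were the scaffolds Dlg4, Shank1, Shank2, Shank3, Dlgap1, Homer2 and Homer3 and the kinase subunits Camk2a and Camk2b. Their probes were taken by the RefSeq transcript that the array files give for each probe, which found 17 probes for these 9 genes, of 20887 genes named on the array.

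The arrays carried RNA of the medial prefrontal cortex (mPFC), a frontal area that takes part in the control of emotion, with 1 wild-type C57BL/6 mouse on each 1-colour array. The 6 susceptible and 3 resilient mice had been through repeated social defeat stress, in which a mouse is repeatedly exposed to an aggressive one, and the labels class them by behavioural phenotype. The 5 naive mice were moved between cages instead. Perfusion took place 4 h past the final session, and each array received 35 ng of RNA out of a punch 1.5 mm wide. The labels speak of independent experiments on different mice without saying which mouse was in which, so experiment was not analysed here.

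Values are log2 signal minus the array's own 75th percentile, so 1 unit is a doubling of brightness relative to the rest of the array, and a level can be compared between mice for 1 probe but not between probes. All 17 probes were well above background on all 14 arrays. The arrays lay on 3 slides. Slide 3 was scanned on another day than slides 1 and 2 and held 2 susceptible, 2 naive and no resilient mice. On every slide the naive arrays occupied row 1 and the defeated ones row 2, and defeat and position on the slide cannot be told apart. The naive arrays were also dimmer on average, with a mean 75th percentile of 8.22 ± 0.61 (SD, n = 6) in susceptible mice and 8.03 ± 0.12 (n = 3) in resilient mice, against 7.82 ± 0.71 (n = 5) in naive mice on the log2 scale. The 2 naive arrays of slide 3, at 8.54 and 8.64, were brighter than every resilient array, at most 8.17. All 8 markers of neurons and all 8 of cortical excitatory neurons were above background on every array, with a summed level (log2) of the excitatory list of 5.10 to 5.66 in susceptible and 5.20 to 5.51 in resilient mice, against 5.41 to 5.69 in naive mice.

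None of the 9 genes passed the test in any comparison. With limma fitted over all genes, 0 of 9 members differed between susceptible and naive mice at an adjusted p under 0.05 (Benjamini-Hochberg), where 2.6% of all 14453 genes did, and 0 of 9 between resilient and naive mice, where 0.152% did (22 genes, or 727 with the replicate number as a block, and 0 of 9 members then too). Between susceptible and resilient mice 0 of 9 differed, as did 0% of all genes, while 0.747% had an unadjusted p under 0.05. At an unadjusted p under 0.05, 1 of 9 members, Camk2b, differed in each comparison with naive mice, against 24% of all genes in susceptible mice and 20.3% in resilient mice. The median difference over the 9 genes was 0.04 in susceptible against naive mice, where that of all genes was 0.02. In resilient against naive mice it was -0.16, against 0.02 over all genes.

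**Figure D1:**
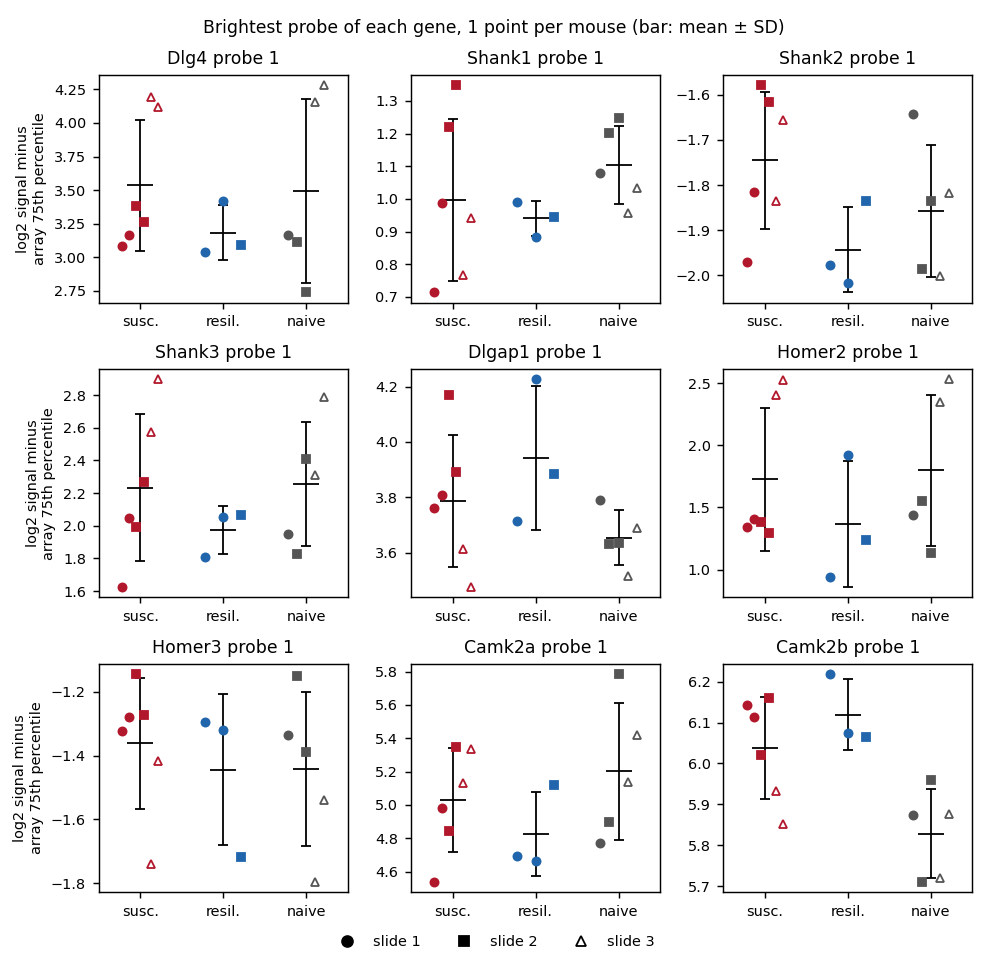
Level of the brightest probe of each of the 9 genes, in log2 signal minus the array's 75th percentile; 1 point per mouse, in susceptible, resilient and naive mice from left to right, with the mean and SD as a bar and the slide as the symbol. The slide 3 mice (open triangles) stand above the others for Dlg4 and Homer2 in both groups that have them, and the resilient mice of Camk2b lie above all naive mice.

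Probe by probe the result was the same without a slide term. Of the 17 probes 0 passed in susceptible against naive mice, where 1.23% of all 29813 probes did, and 0 passed in resilient against naive mice or in susceptible against resilient mice, where 0% of all probes did. At an unadjusted p under 0.05, 18.7% and 0.899% of all probes differed in these last 2 comparisons, and of the member probes 2 and 0 did. In susceptible against naive mice 3 of 17 did, beside 22.1% of all probes. When slide was a block in the fit, 1 of 17 probes passed in susceptible against naive mice, Camk2b probe 2, beside 14.4% of all probes. With that block 0 of 17 passed in resilient against naive mice, beside 4.83%, and 0 in susceptible against resilient mice, beside 0%. The sign was the same within all 3 slides for 4 probes that were higher and 3 that were lower in susceptible than in naive mice, as it was for 26% and 25.3% of all probes. The susceptible and naive mice did not overlap on 1 probe that was higher and 0 that were lower, beside 2.12% and 1.8% of all probes. The resilient and naive mice did not overlap on 4 probes that were higher and 2 that were lower, beside 7.7% and 6.93%.

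The beta subunit of CaMKII, which binds filamentous actin and brings the holoenzyme to it, had the largest difference from naive mice among the 17 probes, in susceptible and in resilient mice. Camk2b probe 2 read 2.35, 2.71 and 2.92 (lowest, median and highest of 6) in susceptible mice and 2.63, 2.74 and 2.81 in the 3 resilient mice, against 1.08, 2.04, 2.12, 2.12 and 2.32 in the 5 naive mice. All 9 defeated mice were above all 5 naive mice, as they were for 1.71% of all probes. The groups of defeated mice overlapped each other.

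Susceptible mice averaged 2.66 ± 0.20 (SD, n = 6) on this probe and naive mice 1.94 ± 0.49 (n = 5). The difference was 0.73 ± 0.19 (SE), a fold of 1.65 with a 95% interval of 1.25 to 2.19, and the limma adjusted p was 0.0650. With slide as a block it was 0.71 ± 0.19 with an adjusted p of 0.0308. Resilient mice averaged 2.73 ± 0.09 (n = 3), which was 0.79 ± 0.23 above naive mice, a fold of 1.73 with an interval of 1.24 to 2.42 and a limma adjusted p of 0.110, or 0.0827 with the block. Within slides, the susceptible mice were above the naive mice by 0.66 on slide 1, 1.25 on slide 2 and 0.22 on slide 3. The resilient mice were above them by 0.73 on slide 1 and 1.03 on slide 2.

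Naive mouse 3, on slide 2, held the lowest value of 1.08. Without it the susceptible mice were 0.51 above the naive mice, with an adjusted p of 0.0916, and with the slide block 0.49 above, with an adjusted p of 0.0258. The adjusted p of the fit without a block ran from 0.0440 to 0.132 as each mouse was left out in turn, and it was under 0.05 without naive mouse 5 or without susceptible mouse 6. With the slide block it ran from 0.0198 to 0.0804 and was under 0.05 in 9 of 14 such fits, but not without naive mouse 1 or susceptible mouse 1, 3, 4 or 5.

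Camk2b probe 1, the brighter of the pair and the one that stands for the gene, was higher by less. It read 5.85, 6.07 and 6.16 (lowest, median and highest) in susceptible mice and 6.06, 6.07 and 6.22 in resilient mice, against 5.71, 5.72, 5.87, 5.88 and 5.96 in naive mice. The resilient mice were all above the naive mice, as they were for 8.32% of genes, and the susceptible mice overlapped with them. The difference from naive mice was 0.21 ± 0.09 in susceptible mice (limma over genes, adjusted p = 0.165) and 0.29 ± 0.11 in resilient mice (adjusted p = 0.149). In susceptible mice the gene passed after quantile normalisation (adjusted p = 0.0448) and with the mean of both probes (adjusted p = 0.0363). Both differences kept their sign within every slide that held the groups, with 0.25, 0.25 and 0.09 on slides 1, 2 and 3 in susceptible mice and 0.27 and 0.23 on slides 1 and 2 in resilient mice. A positive sign within all slides was seen in 29.5% of genes for susceptible mice and 39.7% for resilient mice.

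**Figure D2:**
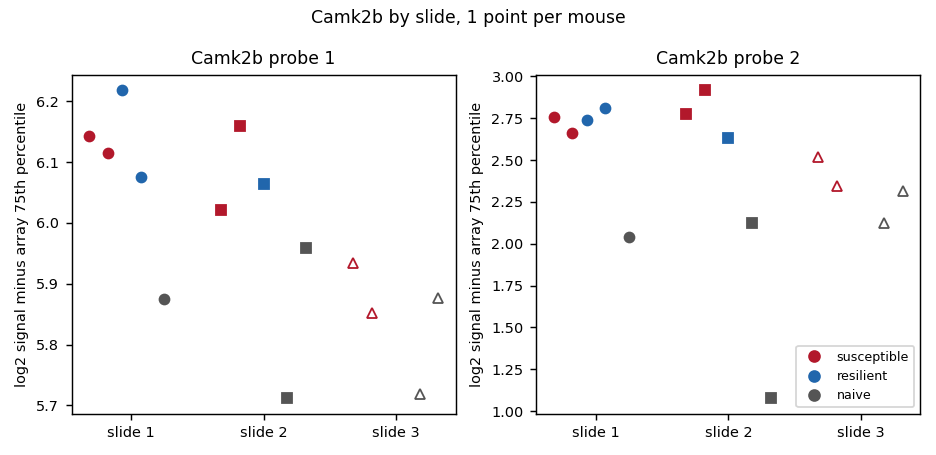
Both Camk2b probes by slide, 1 point per mouse, in log2 signal minus the array's 75th percentile, with susceptible, resilient and naive mice from left to right on each slide. For probe 2 the defeated mice lie above the naive mice on all 3 slides, by 0.22 in susceptible mice on slide 3, where no resilient mouse was placed, and naive mouse 3 is at 1.08.

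The distance between both Camk2b probes within an array does not depend on the array's scaling. Probe 2 minus probe 1 was -3.37 ± 0.11 (SD, n = 6) in susceptible mice and -3.39 ± 0.11 (n = 3) in resilient mice, against -3.89 ± 0.56 (n = 5) in naive mice. All susceptible and all resilient mice were above all naive mice. How often such a distance separates the groups over all genes with several probes was not computed. Naive mouse 3 stood at -4.88 and the other 4 naive mice averaged -3.64 ± 0.13. Without it the differences were 0.27 in susceptible and 0.25 in resilient mice. The exact permutation p was then 0.00952 and 0.0571 (unadjusted), each the smallest that the mice left can give. As the groups did not overlap, leaving out any mouse had to give the smallest p, so these values add nothing to the separation. By an exact permutation test (two-sided) the difference of 0.52 with all mice between susceptible and naive mice had p = 0.0043, the smallest that 6 mice against 5 can give, and p = 0.104 after Benjamini-Hochberg adjustment over the 24 such tests of 8 probe pairs in 3 comparisons. For resilient against naive mice the difference with all mice was 0.50, with an exact permutation p of 0.0357, the smallest that 3 against 5 can give, and 0.286 adjusted. These tests were added after the values had been seen.

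Of the 8 neuron markers 7 were higher in susceptible and 8 in resilient than in naive mice, with a median difference of 0.22 and 0.27, 0 passed the test in either, and the summed levels overlapped between susceptible and naive mice. Their summed level (log2) ran from 8.55 to 9.05 in susceptible and from 8.91 to 8.98 in resilient mice, against 8.68 to 8.86 in naive mice. The resilient sums were all above the naive ones. The 8 cortical excitatory markers were not higher as a list, with 4 higher in each defeated group and a median difference of -0.06 and -0.07. Among the 8 inhibitory neuron markers 7 were higher in each, with a median difference of 0.19 and 0.22. With slide as a block 2 inhibitory markers passed as higher and 1 excitatory marker as lower in susceptible mice. With that block 2 astrocyte, 2 endothelial, 1 oligodendrocyte and 1 microglia marker also passed as lower there. Of the striatal markers 1 passed as higher and 1 as lower. Of all genes 8.83% passed as higher and 6.48% as lower in that comparison. In resilient mice 1 striatal marker passed as lower with the block, beside 3.54% of all genes in either direction. The 6 microglia markers had a median difference of -0.13 in susceptible and -0.14 in resilient mice. Of the 8 astrocyte markers 7 were lower in both defeated groups, with a median difference of -0.31 and -0.37. Their summed level was 6.88 to 7.28 in susceptible and 6.80 to 7.05 in resilient mice, against 7.07 to 7.53 in naive mice. Every resilient astrocyte sum was below every naive one (at most 7.048 against at least 7.071). All 5 meningeal fibroblast markers tested, of 6 listed, were lower in both defeated groups, none of them past the threshold. Their summed level ran from 2.41 to 4.51 in susceptible and from 2.65 to 4.58 in resilient mice, against 3.74 to 4.94 in naive mice. Past the threshold among all the marker lists without a slide block, in susceptible against naive mice, were S100b of the astrocyte list (-0.64, limma adjusted p = 0.0491), Slco1a4 of the endothelial list (-0.73, adjusted p = 0.0392) and Adora2a of the striatal neuron list (-0.45, adjusted p = 0.0175), and no marker passed in resilient against naive mice. Adora2a went against its list, where 5 of 6 striatal markers were higher in susceptible and 3 of 6 in resilient mice (median difference 0.22 and 0.06). The summed striatal level ran from 4.232 to 4.351 in susceptible and from 4.005 to 4.508 in resilient mice, against 3.948 to 4.228 in naive mice. The susceptible striatal sums were thus all above the naive ones. How often a gene list separates the groups in this way was not computed. The median differences in susceptible and resilient mice were -0.43 and -0.11 for 6 oligodendrocyte markers, -0.59 and -0.55 for 6 endothelial, -0.76 and -0.55 for 4 pericyte or smooth muscle, -1.07 and -1.27 for the meningeal, and 1.47 and 0.83 for the 2 erythroid markers tested, of 4 listed. The summed oligodendrocyte level ran from 5.22 to 5.96 in susceptible and 5.21 to 6.32 in resilient mice, against 5.51 to 7.26 in naive mice, and the endothelial one from 4.96 to 5.47 and 4.75 to 5.67, against 5.06 to 5.61 in naive mice. The pericyte or smooth muscle level ran from 1.89 to 3.98 in susceptible and 2.22 to 3.73 in resilient mice, against 3.03 to 4.57 in naive mice, and the erythroid one from 0.03 to 3.31 and 0.24 to 2.62, against -0.45 to 1.39 in naive mice. On each of these 4 lists the groups overlapped. Of the meningeal markers 4 were above background on every array, and the part of these lists in the Camk2b values was not tested. In a tissue punch, more cells of a type and more RNA per cell cannot be told apart.

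Camk2a, the alpha subunit that makes up most of the holoenzyme in forebrain excitatory neurons, was measured by a pair of probes whose differences from naive mice had opposite signs and did not pass the test. Probe 1 read 4.54, 5.06 and 5.35 (lowest, median and highest) in susceptible mice and 4.67, 4.69 and 5.12 in resilient mice, against 4.77, 4.90, 5.14, 5.42 and 5.79 in naive mice. Probe 2 read 4.12, 4.43 and 4.81 in susceptible mice and 4.35, 4.48 and 4.57 in resilient mice, against 4.21, 4.22, 4.23, 4.29 and 4.34 in naive mice. On probe 1 all groups overlapped, and on probe 2 the resilient mice were above all naive mice, as they were for 7.7% of probes.

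The differences from naive mice were -0.17 ± 0.19 on probe 1 and 0.18 ± 0.12 on probe 2 in susceptible mice (limma over probes, adjusted p = 0.647 and 0.420). In resilient mice they were -0.38 ± 0.23 and 0.21 ± 0.15 (adjusted p = 0.413 and 0.482). The 95% intervals of susceptible against naive mice, -0.59 to 0.24 on probe 1 and -0.08 to 0.44 on probe 2, leave room for a change of either sign on either probe. Without naive mouse 3, the highest on probe 1 at 5.79, the probe 1 differences were -0.03 in susceptible and -0.23 in resilient mice. The within-array distance from probe 1 to probe 2 was -0.59 ± 0.33 (SD, n = 6) in the susceptible mice and -0.36 ± 0.26 (n = 3) in resilient mice, against -0.95 ± 0.37 (n = 5) in naive mice, with an exact permutation p of 0.130 and 0.0714 and an adjusted p of 0.520 and 0.429. Without naive mouse 3, which was also lowest on Camk2b probe 2, the distances differed from those of naive mice by 0.21 and 0.45, against 0.35 and 0.59 with it.

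**Figure D3:**
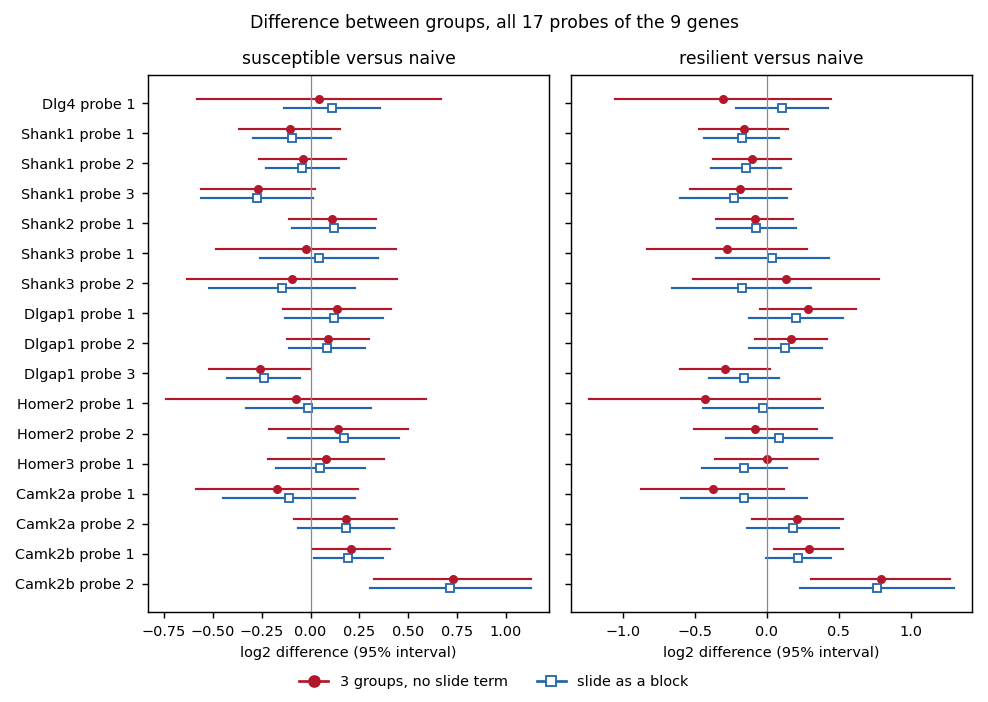
Log2 difference from naive mice of all 17 probes, with 95% intervals, in susceptible (left) and resilient mice (right); filled red circles come from the fit of the 3 groups and open blue squares from the fit with slide as a block. Only the intervals of both Camk2b probes and, in susceptible mice, of Dlgap1 probe 3 exclude 0 in the fit without the block.

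Dlgap1, the adaptor between Dlg4 and Shank, was measured by 3 probes on 2 RefSeq transcripts, and their differences from naive mice had opposite signs. Probes 1 and 2 (NM_177639) were higher by 0.13 ± 0.13 and 0.09 ± 0.10 in susceptible than in naive mice and by 0.29 ± 0.16 and 0.17 ± 0.12 in resilient than in naive mice. Probe 3 (NM_027712) was lower in both, by -0.26 ± 0.12 in susceptible and -0.29 ± 0.15 in resilient mice. The limma adjusted p over probes ranged from 0.224 to 0.649 over these 6 values, so none passed. Probe 1 ran from 3.48 to 4.17 in susceptible and from 3.71 to 4.23 in resilient mice, against 3.52 to 3.79 in naive mice, and overlapped. Probe 2 ran from 1.22 to 1.67 in susceptible and from 1.52 to 1.65 in resilient mice, against 1.31 to 1.50 in naive mice, where only the resilient mice were apart from the naive ones. Resilient mice read 0.03, 0.16 and 0.20 on probe 3, below all naive mice at 0.27, 0.36, 0.41, 0.49 and 0.59, as they were for 6.93% of probes. Susceptible mice read -0.14, 0.11 and 0.50 (lowest, median and highest) and overlapped with naive mice.

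The susceptible mice differed by slide on probe 3. The 4 on slides 1 and 2 read -0.14 to 0.11, below every naive mouse, and the 2 on slide 3 read 0.42 and 0.50, inside the naive range. The 2 naive mice of slide 3 read 0.49 and 0.59, and with group in the model this probe was 0.32 higher on slide 3. The share of all probes that separate these mice in this way was not computed. Within slides the difference from naive mice was -0.31, -0.36 and -0.08 on slides 1, 2 and 3. With slide as a block it was -0.24 ± 0.09 with a limma adjusted p of 0.0759, and with array brightness as a covariate -0.36 with an adjusted p of 0.0331. Within the array, probe 3 minus probe 1 was -3.62 ± 0.44 (SD, n = 6) in the susceptible mice and -3.81 ± 0.22 (n = 3) in resilient mice, against -3.23 ± 0.17 (n = 5) in naive mice. The exact permutation p was 0.0909 and 0.0357, and 0.436 and 0.286 after adjustment.

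The entries used here from RefSeq's promoter table of build GRCm38.p6 leave out a chromosome, and they covered 6 of the 9 genes. A gene not covered may have an entry on the chromosome left out. The table gave a single start for Camk2b and more than 1 for Dlgap1, and it does not pair a start with a transcript. The 250 bases before each start are shown for these genes, the only members with a probe pair whose within-array distance separated a defeated group fully from naive mice. They are printed 5′ to 3′ on the gene's own strand, and capitals mark matches on either strand to the motifs described after them. The Camk2b window is chr11:6065749-6065998 on the minus strand, and those of Dlgap1 are chr17:69968823-69969072 and chr17:70561497-70561746 on the plus strand.
Camk2b: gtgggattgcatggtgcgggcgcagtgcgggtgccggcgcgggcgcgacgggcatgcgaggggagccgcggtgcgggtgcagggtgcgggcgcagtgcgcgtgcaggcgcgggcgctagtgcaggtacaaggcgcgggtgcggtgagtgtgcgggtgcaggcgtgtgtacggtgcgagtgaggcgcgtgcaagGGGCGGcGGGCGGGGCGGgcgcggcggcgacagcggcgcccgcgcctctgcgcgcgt
Dlgap1, first start: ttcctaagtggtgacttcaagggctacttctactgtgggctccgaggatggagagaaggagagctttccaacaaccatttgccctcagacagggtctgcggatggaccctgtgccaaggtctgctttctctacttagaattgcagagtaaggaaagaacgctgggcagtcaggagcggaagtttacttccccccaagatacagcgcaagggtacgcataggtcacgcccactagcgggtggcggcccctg
Dlgap1, second start: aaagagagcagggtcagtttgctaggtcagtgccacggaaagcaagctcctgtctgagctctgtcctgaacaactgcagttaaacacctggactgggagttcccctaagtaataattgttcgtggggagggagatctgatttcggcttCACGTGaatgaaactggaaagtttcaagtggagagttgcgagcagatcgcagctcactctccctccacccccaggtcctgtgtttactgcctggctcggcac

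The Camk2b window held 3 matches to the GC box, GGGCGG, a motif found in 32.74% of 32851 promoters of this length, and 44 CpG pairs, more than 99.5% of promoters hold. The first Dlgap1 window held 9 CpG pairs and no match to any motif searched. The second held 7 CpG pairs and 1 match to the E-box, CACGTG, a motif found in 6.02% of promoters. The median over all promoters was 6 CpG pairs. The TATA box, TATAAA, is found in 12.37% of promoters and had no match in these 3 windows. The cAMP response element, searched as TGACGTCA, is found in 1.55% and had none either. The EGR element, GCGTGGGCG, is found in 0.54% and likewise had none. The glucocorticoid response element, found in 0.39%, had none.

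Among the other scaffolds the groups overlapped on nearly every probe. Dlg4, which anchors glutamate receptors at the membrane, read 3.09, 3.32 and 4.19 (lowest, median and highest) in susceptible mice and 3.04, 3.09 and 3.42 in resilient mice, against 2.74, 3.11, 3.17, 4.16 and 4.28 in naive mice. The values above 4 belonged to the 2 susceptible and 2 naive mice of slide 3. Susceptible minus naive was 0.04 ± 0.29 (limma over genes, adjusted p = 0.945) with an interval of -0.58 to 0.67. With slide as a block it was 0.11 ± 0.11 with an interval of -0.13 to 0.35.

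The Shank genes code for the deep layer of the plate. Shank1 was lower on all 3 probes in both defeated groups. Its probe 3 read -1.27, -0.94 and -0.37 in susceptible mice and -0.87, -0.81 and -0.76 in resilient mice, against -0.72, -0.67, -0.67, -0.58 and -0.51 in naive mice, and its differences were -0.27 ± 0.14 and -0.18 ± 0.16 (limma over probes, adjusted p = 0.260 and 0.598). The resilient mice lay below all naive mice there and the susceptible mice did not, and susceptible mouse 3 held the highest value of all at -0.37. With slide as a block and all mice the susceptible difference was -0.27 with an adjusted p of 0.161. Without that mouse it was -0.39 with an adjusted p of 0.0379, the only 1 of 14 such fits that passed (adjusted p up to 0.347). Probe 1 ran from 0.71 to 1.35 in susceptible and from 0.88 to 0.99 in resilient mice, against 0.96 to 1.25 in naive mice, and probe 2 from 0.23 to 0.72 and from 0.33 to 0.43, against 0.39 to 0.73 in naive mice. The groups overlapped on both, and on these probes the differences were -0.11 and -0.04 in susceptible mice and -0.16 and -0.10 in resilient mice. Shank2 averaged -1.75 ± 0.15 (SD, n = 6) in the susceptible mice and -1.94 ± 0.09 (n = 3) in resilient mice, against -1.86 ± 0.15 (n = 5) in naive mice, and the groups overlapped, with differences from naive mice of 0.11 ± 0.10 and -0.09 ± 0.12.

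Shank3, a scaffold whose loss in mice is known to weaken corticostriatal synapses, ran from 1.63 to 2.90 on probe 1 in susceptible and from 1.81 to 2.07 in resilient mice, against 1.83 to 2.79 in naive mice. The differences from naive mice were -0.02 ± 0.21 and -0.28 ± 0.26. Shank3 probe 2 ran from -1.26 to 0.05 in susceptible and from -0.54 to -0.05 in resilient mice, against -0.92 to 0.36 in naive mice, so the groups overlapped on both probes.

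The Homer proteins have a coiled coil that lets them bind in clusters. Homer2 probe 1 read 1.29, 1.40 and 2.53 in susceptible mice and 0.94, 1.24 and 1.93 in resilient mice, against 1.13, 1.44, 1.55, 2.35 and 2.53 in naive mice. Its difference from naive mice was -0.07 ± 0.31 in susceptible mice, with an interval of -0.74 to 0.59, the widest of the 9 genes in that comparison, and -0.43 ± 0.38 in resilient mice. Homer2 probe 2 ran from -2.26 to -1.72 in susceptible and from -2.52 to -1.86 in resilient mice, against -2.45 to -1.62 in naive mice, with differences of 0.14 ± 0.17 and -0.08 ± 0.20. Homer3 ran from -1.74 to -1.14 in susceptible and from -1.72 to -1.30 in resilient mice, against -1.79 to -1.15 in naive mice, and the differences were 0.08 ± 0.13 and -0.00 ± 0.16. The interval for Homer3 in susceptible against naive mice, -0.21 to 0.37, includes 0, as do those of the other scaffold genes.

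Many probes of the array differed between slides, and several scaffolds differed more between slides than between groups. This comparison of the 4 mice of slide 3 with the 10 of slides 1 and 2, with group in the model, was added after the values had been seen, and 43.7% of all probes passed it. Dlg4 was 1.06 ± 0.11 higher on slide 3 (limma over probes, adjusted p = 1.58e-05) and Homer2 probe 1 was 1.09 ± 0.15 higher (adjusted p = 8.58e-05). Of all probes 1.52% were higher on slide 3 by at least 1. The difference was there in both groups: Dlg4 was higher on slide 3 by 0.93 in susceptible and by 1.21 in naive mice, and Homer2 probe 1 by 1.11 and 1.06. Of the 17 member probes 7 passed, a share near the 43.7% of all probes, so the members did not stand out. Besides Dlg4 and Homer2 probe 1 these were Homer2 probe 2 (0.42), Shank3 probe 1 (0.63), Shank3 probe 2 (-0.74), Dlgap1 probe 3 (0.32) and Homer3 (-0.35). The 2 probes of Shank3 thus differed in opposite directions between the slides, with adjusted p of 0.00427 and 0.00345. Neither Camk2b probe passed, with -0.14 and 0.04. For probe 2 the 0.04 averages opposite shifts, 0.47 in naive and -0.34 in susceptible mice.

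**Figure D4:**
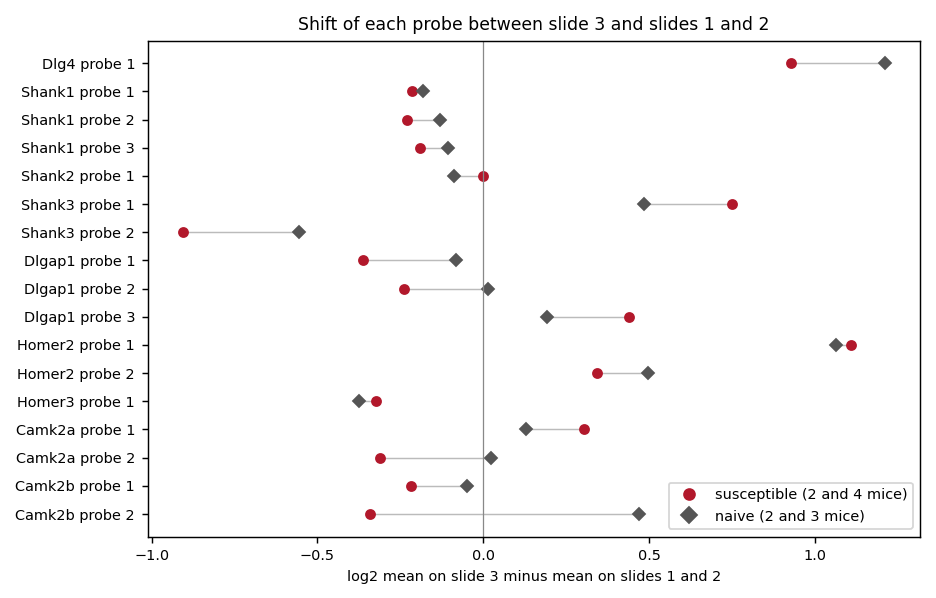
Mean on slide 3 minus mean on slides 1 and 2 of each of the 17 probes, on the log2 scale, in susceptible (circles, 2 and 4 mice) and naive mice (diamonds, 2 and 3 mice). Dlg4 and Homer2 probe 1 are about 1 unit higher on slide 3 in both groups and Shank3 probe 2 is lower in both, while Camk2b probe 2 differs in sign between the groups.

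No resilient mouse lay on slide 3, and differences from that group changed when slide was a block. Resilient minus naive was -0.31 for Dlg4, -0.43 for Homer2, -0.28 for Shank3 and -0.38 for Camk2a without a slide term, and 0.11, -0.03, 0.04 and -0.16 with slide as a block. The corresponding differences of susceptible minus resilient mice were 0.35, 0.36, 0.26 and 0.20 without the block, and 0.00, 0.02, 0.01 and 0.05 with it. Over the 9 genes the median of resilient minus naive was -0.16 without and -0.03 with the block. With it, susceptible and resilient mice differed by at most 0.21 in size on any of the 17 probes, with SE from 0.10 to 0.23.

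For each member the genes with the nearest values over the mice are named as a description. The likeness was the root mean square difference between mean-centred log2 values over the 14 mice, among 12838 genes above background on all arrays, and it includes the slide pattern that these arrays share. With so many genes to choose from some lie near any member, and a member that varies little has near ones among all genes that vary little. The most alike were Gpc5 (0.10) and Cdc42bpb (0.11) to Dlg4, Flot2 (0.09) and Ptpa (0.09) to Shank1, Vamp2 (0.11) and Tlcd3b (0.11) to Shank2, Rnf44 (0.15) and Vegfa (0.16) to Shank3, and Hars (0.10) and Eif4b (0.10) to Dlgap1. To Homer2 they were Plxnb1 (0.15) and Chst2 (0.17), to Homer3 Olfr159 (0.11) and 4933432I09Rik (0.11), to Camk2a Sgsm2 (0.10) and Klk8 (0.12), and to Camk2b Wars (0.05) and Chst1 (0.06). Among the members' own probes the closest pair from different genes was Dlgap1 probe 2 with Camk2b probe 1 (0.13), and Dlg4 with Homer2 probe 1 stood at 0.17. The SD over the 14 mice was 0.51 for Dlg4, 0.56 for Homer2 and 0.37 for Shank3, against 0.16 for Camk2b, 0.15 for Shank2 and 0.18 for Shank1.

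The partners of these proteins were taken as a list of 41 genes: other scaffolds of the same families, Homer1, the remaining CaMKII subunits and inhibitors, calmodulin and neurogranin, other calmodulin kinases, calcineurin, regulators of small GTPases, actin-binding proteins of the spine and auxiliary AMPA receptor subunits. Of these 40 were tested. In susceptible against naive mice 1 was higher past the threshold and 0 were lower, beside 1.64% and 0.962% of all genes, with a median difference of 0.07. In resilient against naive mice 0 passed, with a median of 0.08, and in susceptible against resilient mice 0 passed, with a median of 0.00.

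The partner that passed was Camkk1, a calmodulin kinase kinase that phosphorylates other calmodulin-dependent kinases. It read 3.94, 4.19 and 4.58 (lowest, median and highest) in susceptible mice and 4.08, 4.22 and 4.63 in resilient mice, against 3.43, 3.62, 3.63, 3.76 and 3.89 in naive mice. All 9 defeated mice were above all 5 naive mice, as they were for 2.01% of genes. Susceptible mice were higher by 0.54 ± 0.13 (limma over genes, adjusted p = 0.0469) and resilient mice by 0.64 ± 0.16 (adjusted p = 0.0888), and with slide as a block the adjusted p was 0.0169 and 0.0412, where 3.54% of all genes passed in resilient against naive mice. The resilient call with the slide block held in 6 of 14 fits that left out a mouse (adjusted p from 0.0196 to 0.229). The susceptible call with that block held in 13 of 14 such fits (adjusted p from 0.00693 to 0.0564). With all mice, 15.3% of all genes passed in susceptible against naive mice with the block. With the replicate number as a block, resilient mice were 0.73 higher with an adjusted p of 0.0274, and with replicate number and slide 0.74 with an adjusted p of 0.0759. Within slides, susceptible mice were above naive mice by 0.67, 0.51 and 0.47 on slides 1, 2 and 3. When each mouse was left out in turn, without a block, the susceptible difference ran from 0.47 to 0.60 and its adjusted p from 0.0345 to 0.110, and it passed in 3 of 14 fits, those without naive mouse 5, susceptible mouse 6 or resilient mouse 1. It was also above 0.05 after median scaling (0.0501), after normexp (0.0789), without a filter on dim probes (0.0990), from the deposited value table (0.0550), with only both groups fitted (0.0647), with array weights (0.0558) and with replicate number and slide as blocks (0.0755).

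With the slide block 2 further partners passed in susceptible against naive mice, where 15.3% of all genes did (8.83% higher and 6.48% lower). Iqsec1, an exchange factor for Arf6 that sits in the density, was higher by 0.35 ± 0.11 (limma, adjusted p = 0.0484). Camk2n1, an endogenous inhibitor of CaMKII, was lower, by -0.34 ± 0.11 (adjusted p = 0.0448). It read 5.90, 6.45 and 6.67 in susceptible mice and 6.31, 6.37 and 6.91 in resilient mice, against 6.08, 6.42, 6.82, 7.01 and 7.29 in naive mice, and the groups overlapped. Without the block the adjusted p was 0.120 for Iqsec1 and 0.338 for Camk2n1. With it, the call held in 4 of 14 fits that left out a mouse for Iqsec1 (adjusted p up to 0.118) and in 3 of 14 for Camk2n1 (up to 0.122). After quantile normalisation Camk2n1 differed from naive mice by -0.13 in susceptible and 0.06 in resilient mice. In resilient against naive mice the second smallest p after Camkk1 belonged to Ppp3r1, the regulatory subunit of calcineurin, at 0.37 ± 0.13 (adjusted p = 0.138). In susceptible against resilient mice the smallest belonged to Camk2d and Dlg2, at -0.21 ± 0.17 and 0.44 ± 0.37 (adjusted p = 1.00 for both).

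**Figure D5:**
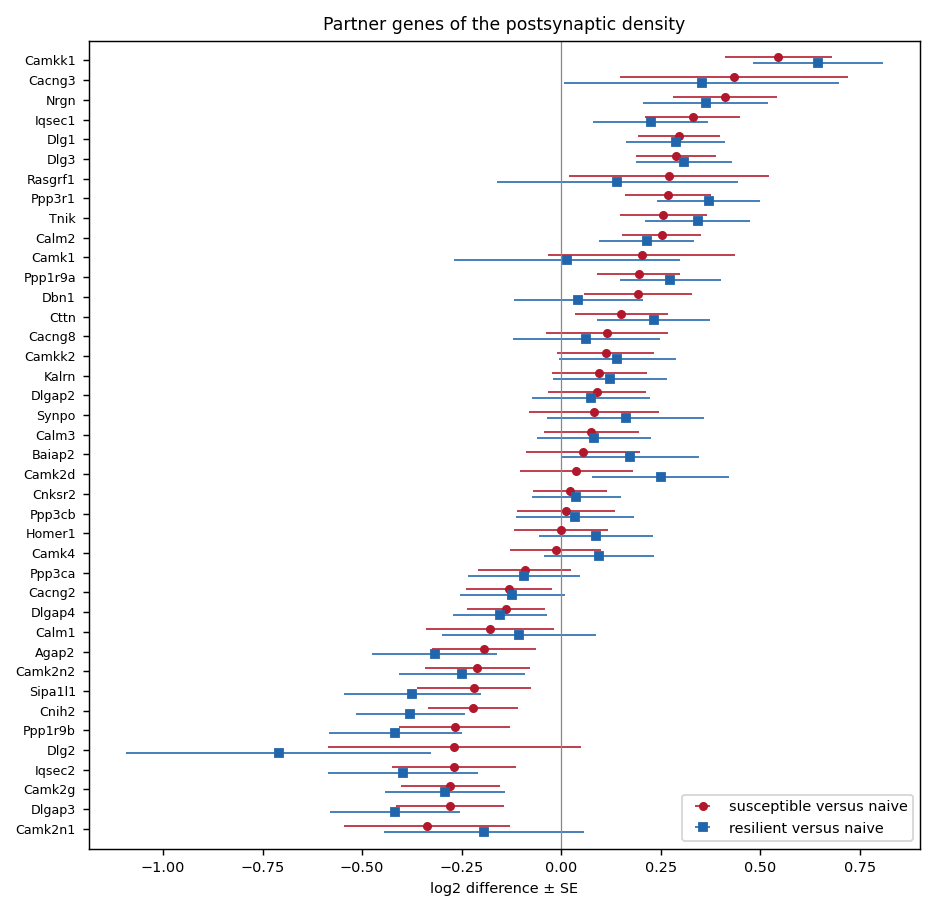
Log2 difference from naive mice, with its SE, of the 40 partner genes tested, in susceptible (red circles) and resilient mice (blue squares), sorted by the susceptible difference. Camkk1 is at the top with 0.54 and 0.64, and Camk2n1 at the bottom with -0.34 in susceptible mice; both comparisons share the same 5 naive mice.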

How the data were processed

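Gene expression was measured on 14 arrays (Agilent design 028005), 1 per mouse, grouped by the labels. Per the file headers, the authors deposited scanner tables from Agilent Feature Extraction 11.0.1.1, whose processed signal is a background-subtracted intensity on a linear scale. The deposited value table holds log2 values of the same arrays, which correlated with them at r = 1. Control and outlier spots were left out, spots of a probe were averaged as log2, and the 75th percentile of the array was then taken off. A probe entered if 1 group or more had it well above background throughout (29813 probes), and the brightest named probe stood for each of 14453 genes. Gene names came from transcript accessions matched to a RefSeq table of GRCm38.p6; the headers name mm9, and probe positions were not analysed here. Groups were compared in 1 limma 3.58.1 fit (R 4.3.3) of 14 arrays without covariates, with Benjamini-Hochberg adjustment over all genes or all probes; an adjusted p under 0.05 counts as a call. All members are named, with the partners past the threshold and the 2 with the smallest p. The members and gene lists were chosen with earlier results of these data known.

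Same-numbered mice correlated in their deviations from -0.37 to 0.71 (susceptible and naive) and from -0.38 to 0.39 (susceptible and resilient), so numbers pair no samples there. The 3 resilient and naive pairs were all positive, at 0.11 to 0.32, and counted as possible pairs. Replicates 1 and 3 of these pairs shared a slide, and whether the numbers mark a true pairing was not tested. Alternatives changed the scaling, background correction, filter, probe rule and block. The number of arrays limits the precision, and p-values measure the spread between these mice only.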

Additional observations from a re-analysis of the deposited data

Results flagged for a closer look

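Single mice stood apart on 2 of the 34 probe and group combinations tested for an isolated lowest or highest value, where chance marks about 1 in 20. Both were naive mouse 3. On Camk2b probe 2 it read 1.08 while the nearest naive mouse read 2.04, a gap of 0.780 of the group's whole range. On Shank1 probe 2 it read 0.73 while the nearest naive mouse read 0.49, a gap of 0.720 of the range. Both exceed the limit of 0.71 for 5 samples. Without this mouse, Camk2b probe 2 was 0.51 higher in susceptible than in naive mice.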

How the results depend on the processing

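Of the 9 genes 0 were called in every comparison and 0 to 1 under the alternatives, and of the 17 probes 0 were called and 0 to 2 under the alternatives. For susceptible against naive mice, 1 of 9 genes (Camk2b) passed after quantile normalisation (0.35, limma adjusted p = 0.0448) and 1 with the mean of a gene's probes (0.47, adjusted p = 0.0363), as did 580 and 544 of all genes. Of the 17 probes, 1 (Camk2b probe 2) passed with slide as a block, 1 on slides 1 and 2 only with slide as a block (1.01, adjusted p = 0.0274), and 2 with array brightness as a covariate, Camk2b probe 2 (0.69, adjusted p = 0.0416) and Dlgap1 probe 3. In these fits 4280, 3189 and 3065 of all probes passed, in that order, where the main fit tested 29813. For resilient against naive mice 1 passed with brightness, Camk2b probe 2 (0.77, adjusted p = 0.0491), beside 2611 of all probes. Brightness and the fit on slides 1 and 2 were added after seeing the data. Leaving out each mouse gave 0 to 0 of 9 genes in each comparison and 0 to 1 of 17 probes in susceptible against naive mice, with and without slide as a block; the probe called with the block was Camk2b probe 2 in 9 fits and, without susceptible mouse 3, Shank1 probe 3. Over all probes these fits called 0 to 1088 in susceptible against naive mice without the block and 1212 to 5510 with it. The replicate block, alone or with slide, left 0 of 9 genes in each comparison. The cause of these changes was not tested. Over all genes, the 376 called in susceptible against naive mice became 2213 with slide, 2501 with scan day, 1711 with the replicate block, 22 with replicate and slide, 580 after quantile normalisation, 110 after normexp, 35 without a filter, 66 with only those groups, 1464 with brightness, 1457 on slides 1 and 2 with slide as a block and 1423 at an adjusted p under 0.1. The 22 of resilient against naive mice became 511, 1467, 727, 0, 40, 0, 0, 0, 1098, 655 and 324 in that order, 63 with trend and robust moderation and 758 with array weights. Leaving out a mouse gave 27 (without susceptible mouse 1) to 869 (without susceptible mouse 6) and 0 to 76, and 0 to 1 between susceptible and resilient mice. Signs changed in 375 of 3383 recomputed single values, with none past the threshold on either side.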
